A study of Mus musculus with 6 samples.

Results

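The CatSper genes encode the subunits of the sperm calcium channel, and their transcripts were measured in whole testes of wild-type (Wt) mice and of Dazap1 mutants (Fn) on Affymetrix Mouse Genome 430 2.0 arrays. DAZAP1 is a nuclear RNA-binding protein of the hnRNP class. The Fn mice were homozygous for the floxed-with-neo allele, which is present in all cells of the animal and makes an aberrant DAZAP1 protein, and those sampled were among the few that survive the perinatal period and grow poorly. Both groups were of mixed C57BL/6 and 129 background and were sampled at postnatal day 21 (P21), with 3 Wt and 3 Fn testis RNAs, each hybridised to its own one-colour array. The members were all probe sets whose annotated gene symbol begins with Catsper. This gave 10 probe sets for 7 genes, Catsper1, Catsper2, Catsper3, Catsperd, Catsperg1, Catsperg2 and Catsperz, of 18193 genes that had a probe set of their own. The RefSeq table of mouse genes holds 11 CatSper symbols, and the other 4, Catsper4, Catsperb, Catspere1 and Catspere2, had 0 probe sets naming them alone and were not analysed here.

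CatSper opens in the principal piece of the sperm flagellum when the cytoplasm becomes alkaline, and the calcium that enters drives the hyperactivated beat that sperm need to reach and penetrate the egg. The pore is built from CATSPER1 to CATSPER4, each with a voltage-sensor and a pore domain. Around it sit transmembrane auxiliary subunits with large extracellular parts (the products of Catsperb, Catsperd, Catspere1, Catspere2, Catsperg1 and Catsperg2) and a small cytoplasmic pair, CATSPERZ with EFCAB9. In the mouse the transcripts are made by meiotic and haploid germ cells, and males that lack a pore subunit are infertile.

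All measured CatSper genes whose signal rose above the filter on dim probe sets were lower in Fn testes. The deposited MAS5 signals, linear intensities that combine the probes of a probe set, were tested on the log2 scale with limma. Benjamini-Hochberg adjustment ran over the 27022 probe sets with a geometric mean over the arrays of 48 or more, the 40th percentile of these means. Of the 10 CatSper probe sets 8 passed this filter, 6 of them with both genotypes above 48 and 2 (Catsper1 and Catsper3) through the Wt arrays alone, so that these last could pass only by differing. The 8 tested probe sets were lower in Fn at an adjusted p under 0.05, and 0 were higher. Over all probe sets tested, 20.2% were lower and 41.8% were higher at that threshold. The 8 also had all 3 Fn values below all 3 Wt values and fell by more than 2-fold. Of all probe sets tested, 22.1% had their Fn values below their Wt values in this way, and 11.0% fell by more than 2-fold. The 2 probe sets that did not pass, the dimmer of Catsperd and that of Catsperg2, lay under 48 on all 6 arrays.

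The deposited signals are scaled so that the mean of each array without its highest and lowest 2% is nearly the same, 497.7 to 498.04. The array medians were 86.3 to 89.9 in Wt and 90 to 105.2 in Fn, and Spearman correlations across probe sets lay between 0.951 and 0.961 for arrays of the same genotype and between 0.897 and 0.914 for Wt against Fn. Dazap1 itself had signals of 4323, 4462 and 5046 in Wt and 2538, 2735 and 2819.8 in Fn. Its log2 change was -0.77 (adjusted p = 6.7e-05 from limma), and the sources used here do not place its probe set relative to the altered part of the gene. The brightest probe set of the beta-actin gene Actb had 0.09 on the log2 scale (limma adjusted p = 0.74). Sycp3, a synaptonemal complex protein of meiotic cells, and Ddx4, the germ cell helicase, were bright on every array, with mean signals of 11707 and 9702 in Wt and 12505 and 6100 in Fn. Sox9 of Sertoli cells and Cyp11a1 of Leydig cells were also above the filter level, so germ, Sertoli and Leydig cell transcripts were present in both groups. In whole testes, fewer cells of a type and less RNA per cell cannot be told apart, and this holds for each change given here. The study describes P21 testes of both genotypes as holding few or no haploid spermatids. It raises the concern that Fn spermatocytes of this age might lag behind those of Wt, since the mutants grow poorly. Matched age may therefore not be matched stage, and this was not tested here. The labels call the RNAs of a genotype biological replicates, and the p-values rest on the spread between these 3 per genotype.

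Among the genes of the pore, Catsper2 was read by 2 probe sets. The brighter (1425309_at) had signals of 4180, 3512 and 4666 in Wt and 430.3, 550.8 and 339.3 in Fn testes. No Fn value came near the Wt range, and the Fn level was 9.48-fold lower between geometric means (log2 change -3.24, 95% confidence interval -3.64 to -2.85, adjusted p = 6.2e-07 from limma). The dimmer (1445264_at) had 327.3, 481.4 and 440.2 in Wt and 115.2, 134.7 and 110.5 in Fn. It too fell without overlap, but by less (log2 change -1.78, 95% confidence interval -2.20 to -1.36, adjusted p = 4.4e-05 from limma).

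Catsper1, the founding pore subunit, had signals of 322.6, 159.6 and 336 in Wt and 8, 70.7 and 40.4 in Fn testes. Of the 3 Fn values, 2 lay under the filter level, so the fall is given as a bound: Fn was at least 5.39-fold lower, the Wt geometric mean over 48. The fitted log2 change was -3.19 with a wide 95% confidence interval of -4.73 to -1.65 (adjusted p = 0.0028 from limma). It was -2.27 without Fn replicate 1, the array with the signal of 8, and -1.88 with 48 added to every signal, a setting chosen after the data were seen. Catsper3, another pore subunit, had 311.9, 190.2 and 315.6 in Wt and 25.6, 50.1 and 35.5 in Fn, a fall of at least 5.53-fold by the same bound (log2 change -2.89, 95% confidence interval -3.60 to -2.19, adjusted p = 5.3e-05 from limma). With 48 added to every signal its change was -1.90. For both genes the Wt arrays were well above the filter level and the lowest Wt value was more than the highest Fn value.

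Of the auxiliary subunits, Catsperd, whose product is needed for a stable channel complex, had signals of 3221, 3148 and 3567 in Wt and 213, 262 and 193.1 in Fn testes. The Fn level was 15-fold lower, with the narrowest interval of the 8 tested probe sets (log2 change -3.90, 95% confidence interval -4.20 to -3.60, adjusted p = 1.1e-07 from limma). The mean of both Catsperd probe sets, the second of them dim, had -2.89. Its other probe set (1431586_at) read 30.3, 33 and 43 in Wt and 8.2, 29.9 and 3.6 in Fn. These values lie under the filter level in both genotypes and give no fold, and with no filter the probe set did not pass (adjusted p = 0.097 from limma).

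Catsperg1, a gene for the gamma subunit, was read by a bright and a dimmer probe set. The bright one (1425852_at) had 2079.5, 1835 and 2679.8 in Wt and 224.8, 329 and 202.3 in Fn, a fall of 8.81-fold (log2 change -3.14, 95% confidence interval -3.59 to -2.69, adjusted p = 1.6e-06 from limma). The dimmer (1445171_at) had 769.4, 441.1 and 592.8 in Wt and 162.3, 151 and 117.9 in Fn, a fall of 4.11-fold (log2 change -2.04, adjusted p = 4.7e-05 from limma). Catsperg2, the paralog of Catsperg1, had 13.1, 23.1 and 25.7 in Wt and 39.3, 7.9 and 1.5 in Fn. The groups overlapped at dim signal, and no difference was detectable (adjusted p = 0.38 from limma with no filter).

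Catsperz, the small cytoplasmic subunit that keeps the channel in continuous rows along the tail, had the largest change of the 8 tested probe sets. Its probe set read 8727, 9779 and 9827 in Wt and 230.1, 421.7 and 146.8 in Fn testes. The Fn level was 38.9-fold lower (log2 change -5.28, 95% confidence interval -5.95 to -4.61, adjusted p = 8.0e-07 from limma), and 0.34% of all probe sets tested changed by as much or more downward. The identity of this probe set carries a doubt. The platform annotation gives it to Catsperz, but its transcript record is one that the RefSeq table lists under Kcnk4, the potassium channel gene that lies next to Catsperz. The other probe set of that record, annotated as Kcnk4, was dim, at 29.7, 2.6 and 9.9 in Wt and 28.8, 34.4 and 10.5 in Fn. Kcnk4 was looked up after these values were seen, and which transcripts the Catsperz probe set reads was not settled.

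A further probe set (1440296_at) carries 2 gene names in the platform annotation, a predicted gene and a CatSper name, and is therefore given by its identifier only and counted in no total. It had signals of 2163, 1922 and 2166 in Wt and 173.1, 263.2 and 147.3 in Fn testes. Its log2 change was -3.46 (95% confidence interval -3.90 to -3.02, adjusted p = 8.0e-07 from limma).

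**Figure D1:**
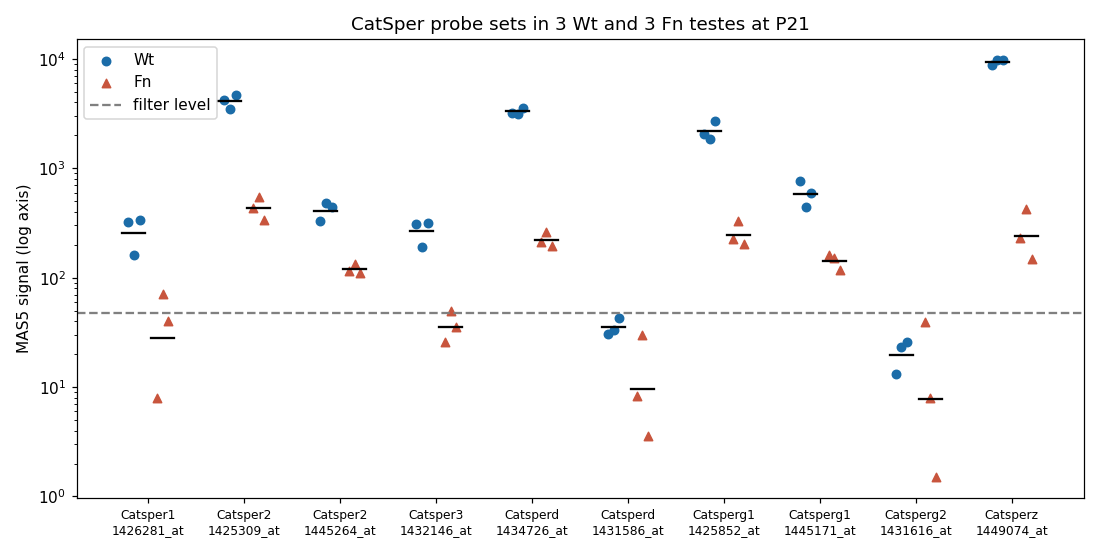
MAS5 signal on a log axis of each of the 10 CatSper probe sets in 3 Wt (circles) and 3 Fn (triangles) arrays of P21 testes, with short bars at the geometric means and a dashed line at the filter level of 48. The Fn points lie below all Wt points in 9 of the 10, the groups of Catsperg2 overlap, and the dimmer Catsperd probe set and Catsperg2 lie under the line on all 6 arrays.

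The fitted changes spread widely among the members. Catsperz had a larger fall than the brightest probe sets of the other genes above the filter level in both genotypes, with differences in log2 change of -1.378 against Catsperd, -2.04 against Catsper2 and -2.14 against Catsperg1. Against Catsper1 and Catsper3, whose geometric mean signals in Fn were under the filter level, no size of the difference is given. The log2 ratio of Catsperz to Catsper2 lay between 1.06 and 1.48 in Wt and between -1.21 and -0.39 in Fn testes. The difference from Catsper2, Catsper3, Catsperd and Catsperg1 gave an exact two-sided permutation p of 0.1, the smallest that 3 against 3 arrays allow, and that from Catsper1 gave 0.2 by the same exact permutation test. The ratios to the first 4 of these genes did not overlap between the genotypes, whereas those to Catsper1 did. Catsperz had the largest fall in these same arrays, so the direction of these differences was fixed by that ranking. The identity of its probe set is also in doubt. The brighter probe set of Catsper2 fell more than the dimmer, with a difference in log2 change of -1.47, and so did that of Catsperg1, with -1.10, each with the same exact permutation p of 0.1. Over these 7 comparisons the adjusted values were 0.12 to 0.2, so none passed a threshold that this design could not reach. The sources used here do not place the probe sets on the transcripts.

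**Figure D2:**
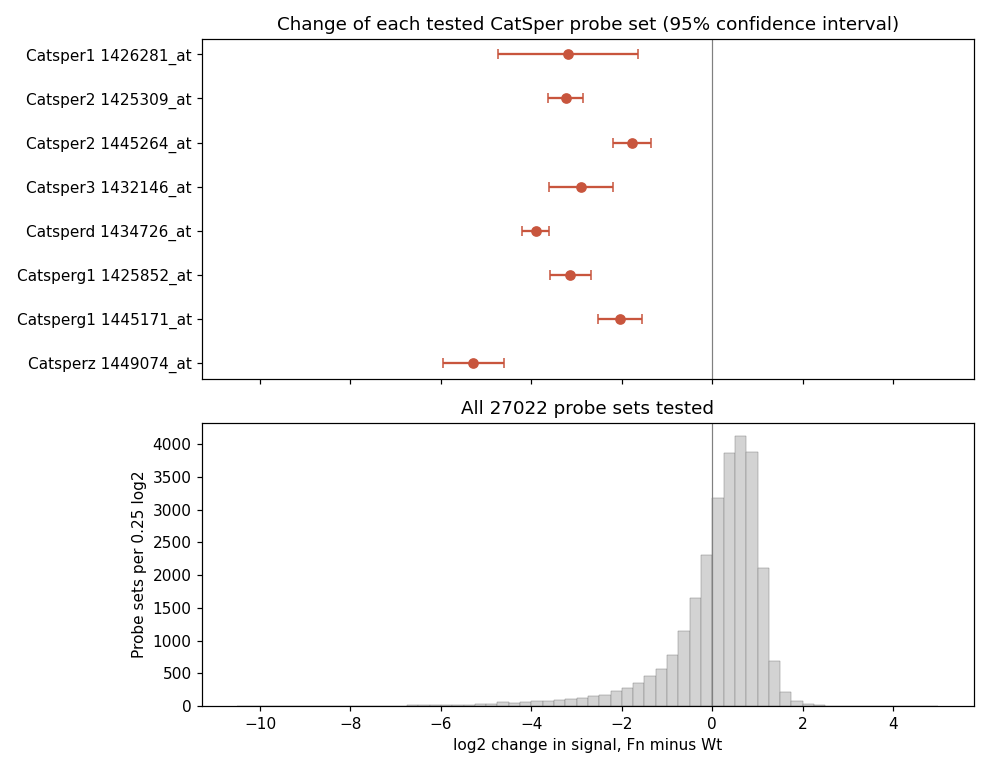
Upper panel, log2 change in signal (Fn minus Wt) with its 95% confidence interval for each of the 8 tested CatSper probe sets, and lower panel, the number of probe sets per log2 bin among all 27022 tested. The CatSper intervals all lie below 0. The fitted changes run from -5.28 for Catsperz to -1.78 for the dimmer Catsper2 probe set, in the lower tail of a distribution centred above 0.

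Within a genotype, the same array was highest or lowest in most tested CatSper probe sets, though not in all. Among the 3 Fn arrays, replicate 2 was the highest in 7 of the 8 tested probe sets and replicate 3 was the lowest in 6. Among the 3 Wt arrays, replicate 2 was the lowest in 6 and replicate 3 was the highest in 6. Against these, the dimmer Catsper2 probe set lay at 0.23 and Catsperz at 0.05 from their group means on Wt replicate 2. The brighter Catsper2 probe set lay at -0.22 there. Catsper2 and Catsperg1 each count with 2 probe sets, and the share of all probe sets with such an order was not computed. As a median over the 8 probe sets, Fn replicate 2 lay 0.38 above the mean of its group on the log2 scale, Fn replicate 3 lay at -0.23 and Wt replicate 2 at -0.23. The median over 12 round spermatid genes was close on these arrays, with 0.33, -0.30 and -0.35. On Wt replicate 1 it was 0.19, beside -0.004 for the CatSper probe sets. The likeness was not particular to round spermatid genes. On the same arrays the medians were 0.26, -0.32 and -0.48 over 6 elongating spermatid genes. They were 0.21, -0.14 and -0.03 over 15 pachytene spermatocyte genes, and 0.19, -0.09 and -0.18 over 19 sperm ion transport genes. Over 12 Sertoli cell genes the same medians were -0.05, 0.08 and 0.08, and over all 13447 genes tested they did not pass 0.02 in size. The part of germ cell content in these differences between arrays was not tested.

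**Figure D3:**
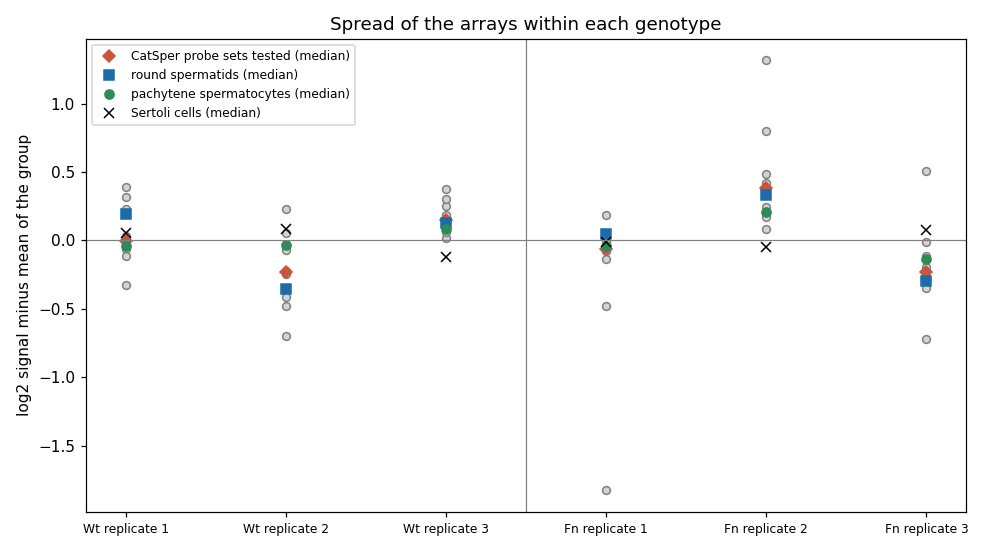
Deviation of each array from the mean of its genotype on the log2 scale, with grey points for the 8 tested CatSper probe sets and symbols for the medians of these, of round spermatid, of pachytene spermatocyte and of Sertoli cell genes. The CatSper and round spermatid medians lie above 0 in Fn replicate 2 and below 0 in Fn replicate 3 and Wt replicate 2.

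The promoters are shown for 4 members that fell together, to set their start regions side by side. RefSeq promoter windows of build GRCm38.p6, from 250 bases before to 50 bases after a start site, were found for 9 of the 11 CatSper genes, 12 windows in all. Catsper1 and Catsperg2 were not matched. Each is written 5′ to 3′ on the strand of the gene, and capitals mark a cAMP response element (CRE) half-site (TGACG) or a MYB motif (GGCAGTT) on either strand. The windows are chr2:121413743-121414042 on the minus strand for Catsper2, chr17:56626797-56627096 on the plus strand for Catsperd, chr13:55784329-55784628 on the plus strand for Catsper3 and chr19:6925331-6925630 on the minus strand for Catsperz.
Catsper2: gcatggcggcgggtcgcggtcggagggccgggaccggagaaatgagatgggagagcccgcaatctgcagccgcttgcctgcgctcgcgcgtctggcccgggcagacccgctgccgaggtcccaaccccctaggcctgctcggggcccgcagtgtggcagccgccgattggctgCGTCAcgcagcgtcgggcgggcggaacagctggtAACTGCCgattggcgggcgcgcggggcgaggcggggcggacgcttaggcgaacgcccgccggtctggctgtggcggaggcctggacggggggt
Catsperd: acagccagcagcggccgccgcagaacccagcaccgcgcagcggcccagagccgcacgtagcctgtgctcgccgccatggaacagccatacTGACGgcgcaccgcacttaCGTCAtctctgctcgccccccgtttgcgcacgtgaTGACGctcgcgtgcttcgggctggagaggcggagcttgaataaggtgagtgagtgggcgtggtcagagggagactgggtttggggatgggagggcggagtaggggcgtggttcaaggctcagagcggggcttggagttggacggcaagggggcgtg
Catsper3: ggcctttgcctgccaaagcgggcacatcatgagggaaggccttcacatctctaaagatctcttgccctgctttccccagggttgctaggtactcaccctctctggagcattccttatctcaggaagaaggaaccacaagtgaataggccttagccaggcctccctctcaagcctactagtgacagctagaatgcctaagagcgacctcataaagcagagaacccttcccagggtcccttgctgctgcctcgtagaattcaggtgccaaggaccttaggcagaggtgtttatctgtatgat
Catsperz: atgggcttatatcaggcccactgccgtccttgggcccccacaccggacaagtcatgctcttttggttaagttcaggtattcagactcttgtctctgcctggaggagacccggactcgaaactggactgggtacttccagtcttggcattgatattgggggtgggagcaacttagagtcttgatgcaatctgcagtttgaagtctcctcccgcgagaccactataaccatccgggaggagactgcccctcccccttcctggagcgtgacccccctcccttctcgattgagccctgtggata

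None of the motifs searched was in all 4 printed windows, and those of Catsper3 and Catsperz held 0 matches. The CRE half-site was found in 2 of the 12 windows, at -77 in Catsper2 and at -160, -141 and -106 from the start site in Catsperd, and 20.8% of all 32851 promoter windows hold it. The full CRE (TGACGTCA), which contains the half-site, was in 0 of the 12 and in 1.79% of all. The MYB motif was in 2 of the 12, at -43 in Catsper2 and at -100 and -13 in Catsperb, and in 4.12% of all. The TATA box (TATAAA) was in 1, a window of Catsperg1, and in 13.6% of all, and the RFX half-site (GTTGCC) was in 1, a window of Catspere2, and in 12.5% of all. Base composition also differed. The Catsper2 window was 74.7% G and C with 41 CG pairs and the printed Catsperd window 66.7% with 29, whereas Catsper3 had 52.3% with 3 and Catsperz 55.3% with 9. A second Catsperd window, chr17:56627893-56628192, is not printed. It had 53.0% with 12 and held no match to a motif searched. The median of all windows was 52.7%. A match is one of letters only. Positions are counted from the start site of each window, which need not be the outer end of the gene. The Catsper2 window lies wholly inside its gene, which spans 121391633 to 121414598 on chromosome 2. Which transcript each start site belongs to was not determined.

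Transcripts of genes whose products associate with the channel were lower as well where they were tested. The list holds 5 genes, of which 3 passed the filter and 3 were lower, with 24.7% of all 13447 genes tested (by their brightest probe set) lower and 44.9% higher. Efcab9, the calcium-sensing partner of CATSPERZ, had signals of 763.1, 532.6 and 707.7 in Wt and 60.9, 71.7 and 56.1 in Fn testes (log2 change -3.40, adjusted p = 7.8e-07 from limma). Slco6c1, an organic anion transporter family member found in the channel complex, had 5719, 4973 and 6235 in Wt and 57.4, 72.8 and 62.3 in Fn (log2 change -6.46, adjusted p = 1.9e-08 from limma). C2cd6, which takes part in moving the channel to the flagellum, had 1673, 1685 and 1928 in Wt and 210.7, 292.9 and 183.8 in Fn (log2 change -2.97, adjusted p = 9.2e-07 from limma). In all 3 genes the Fn values lay far below the Wt values. Tmem249 and Tmem262, small membrane proteins of the complex, did not pass the filter. Tmem249 read 48.7 to 65.6 in Wt and 4 to 6.1 in Fn, and Tmem262 read 41.5 to 76.9 in Wt and 10.2 to 37.5 in Fn.

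Other genes of sperm ion transport and calcium signalling were lower in most but not all cases. Of 23 genes listed 22 were measured and 19 passed the filter, of which 13 were lower (24.7% of all genes tested were), 1 was higher (44.9% of all) and 5 did not pass the test. Of the 13, Akap4 and Pkdrej passed the filter through the Wt arrays alone. The median log2 difference over the 22 measured genes was -2.52, or -2.29 where dim groups were raised to the filter level. Kcnu1, the sperm potassium channel SLO3, had a mean signal of 412.9 ± 105.5 (SD, n = 3) in Wt testes and of 73.3 ± 10.3 (SD, n = 3) in Fn testes (limma adjusted p = 1.7e-05). Adcy10, the soluble adenylyl cyclase, had a log2 change of -3.95, Slc9b1, a sodium-proton exchanger of the flagellum, -3.71, and Slc26a8, an anion transporter of sperm, -3.34. Of the anchoring proteins of the fibrous sheath, Akap3 had a log2 change of -3.70 and Akap4 was at least 8.34-fold lower, and the calcium-binding Cabyr had a log2 change of -2.56. Enkur, a calmodulin-binding adaptor, had -2.96, and Pkdrej of the sperm head was at least 15.9-fold lower.

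The calcineurin genes of sperm were also lower, with log2 changes of -4.77 for the regulatory subunit gene Ppp3r2, -1.92 for the catalytic subunit gene Ppp3cc and -2.10 for Spata33, which targets calcineurin to sperm mitochondria. The chloride channel gene Cftr had 285.8 ± 31.3 in Wt and 165.03 ± 20.4 in Fn (SD, n = 3 per genotype, log2 change -0.79, adjusted p = 0.0027 from limma). Abhd2, the lipase that acts in the progesterone response, was the gene that was higher (log2 change 0.39, adjusted p = 0.024), beside a median of 0.32 for all genes, and it did not pass under 3 other scalings of the arrays. The proton channel gene Hvcn1 (0.35), Prkaca (0.17), Camk4 (0.06), Trpc2 (-0.03) and Atp2b4 (-0.49) had adjusted p values of 0.21 to 0.93 from limma. In Wt testes, Hvcn1, Atp2b4 and Camk4 had geometric means of 55.5, 73.7 and 74.9. These lie near the filter level of 48, so a large fall could not be read for them. Trpc2 had 132.5 and Prkaca 1926. Plcz1, the sperm phospholipase that starts egg activation, did not pass the filter, with 323 to 683.2 in Wt and 2 to 7.5 in Fn. Lrrc52, the partner of SLO3, and Atp1a4, the sperm sodium pump, did not pass it either, with 60.7 to 124.6 and 82.6 to 209.8 in Wt and 17.9 to 28.1 and 4.5 to 13.8 in Fn.

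Calcium channel genes outside the CatSper family were called lower and higher at shares not far from those of all genes, 24.7% lower and 44.9% higher. Of 27 subunits of other voltage-gated calcium channels and their relatives measured, 17 passed the filter, 4 were lower (23.5%) and 6 higher (35.3%), and the median log2 change of those tested was 0.27, beside 0.32 for all genes tested. Of the 4 lower, Cacna1g, Cacnb1 and Cacng8 passed the filter through the Wt arrays alone and so could pass only by differing. The fourth was Cacna1h, a T-type channel, with 1615, 1822 and 2429.5 in Wt and 241.9, 305.1 and 294.2 in Fn testes (log2 change -2.79, adjusted p = 1.1e-06 from limma). The sodium leak channel gene Nalcn rose by 1.05 and Cacng5, of the gamma subunit family, by 0.83 on the log2 scale. Cacng8, of the same family, read 122.6 to 135.1 in Wt and 16.5 to 41.6 in Fn, at least 2.71-fold lower. Of 15 intracellular calcium channels, pumps and their sensors tested of 20 measured, 3 were lower (20%) and 7 higher (46.7%), with a median of 0.40. Stim2, a calcium sensor of the endoplasmic reticulum, rose by 1.11, the plasma membrane pump gene Atp2b1 by 1.11 and the Golgi pump gene Atp2c1 by 0.95. The store-operated channel gene Orai2 was lower, with -1.04 on the log2 scale (limma adjusted p = 0.0026).

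**Figure D4:**
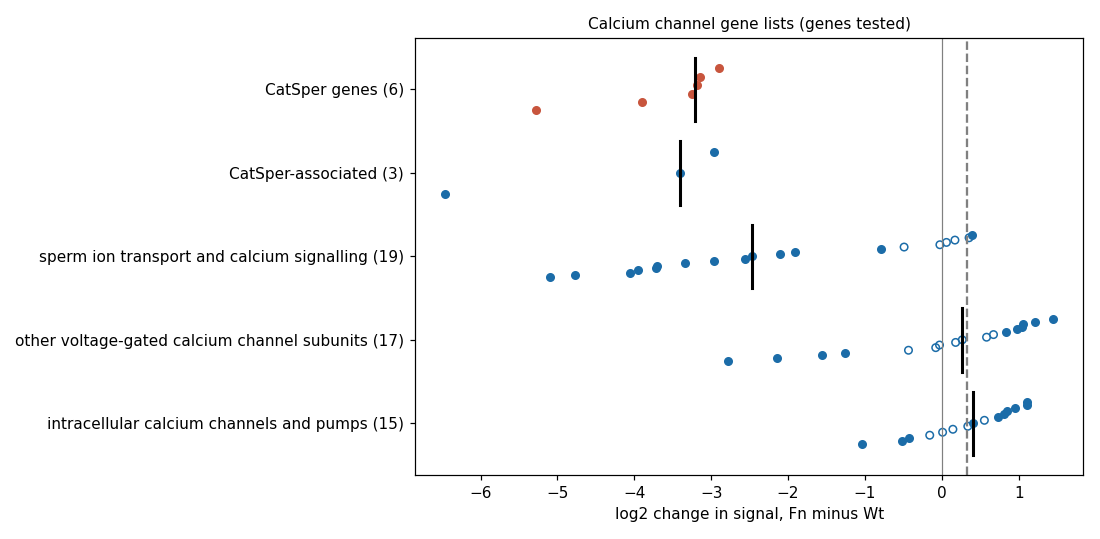
Fn minus Wt difference in log2 signal for the tested genes of 5 lists (brightest probe set each, number tested in brackets). Filled symbols mark an adjusted p under 0.05 by limma and open symbols the rest, black bars give list medians, a solid grey line stands at 0 and a dashed one at 0.32, the all-gene median. The CatSper points lie between -5.28 and -2.89, and the medians of the other voltage-gated and the intracellular channel lists lie near the dashed line.

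Most tested genes of the pachytene spermatocyte, round spermatid and elongating spermatid lists were lower in the same arrays. The lists are named for stages, and no cells were counted here. The study describes P21 testes of both genotypes as holding few or no haploid spermatids. For the counts below, 24.7% of all genes tested were lower and 44.9% higher. Of 16 round spermatid genes 12 passed the filter and 12 were lower, 3 of them (Acrv1, Actl7a and Spaca3) having passed through the Wt arrays alone. The summed signal of the 16 was 30865 to 36555 in Wt and 2766 to 3663 in Fn testes. Zpbp had a log2 change of -3.85 and Dkkl1 of -2.98 among them. Of 12 elongating spermatid genes, 6 passed and 5 were lower, but 4 of the 5 (Prm2, Odf1, Smcp and Gapdhs) passed through the Wt arrays alone. The summed signal of the 12 was 2578 to 4940 in Wt and 316.4 to 365.8 in Fn. Of 15 pachytene spermatocyte genes tested of 16 measured, 13 were lower (Ccna1 having passed through Wt alone) and 0 higher, with a summed signal of 105395 to 111394 in Wt and 33412 to 42360 in Fn, and Pgk2, a glycolytic enzyme of germ cells, showed -5.73 on the log2 scale. In early meiotic prophase 17 genes were tested, of which 4 were lower (23.5%, near the share of all genes) and 5 higher (29.4%). Their summed signals were 69457 to 72060 in Wt and 61223 to 64902 in Fn. Of 12 spermatogonial genes 10 were higher and 2 lower, and of 12 Sertoli cell genes 11 were higher and 0 lower, the Sertoli sum going from 50945 to 58286 in Wt to 79863 to 82412 in Fn. Over the 7 CatSper genes the summed signal was 18647 to 21417 in Wt and 958.9 to 1692 in Fn. The Catsperz probe set, whose identity is in doubt, gave 8727 to 9827 of this in Wt and 146.8 to 421.7 in Fn. Of other somatic cells, 7 of 8 peritubular myoid cell genes were higher, beside 44.9% of all genes tested. The 3 of 5 Leydig cell (60%), 5 of 8 macrophage (62.5%, with 1 lower) and 3 of 7 endothelial cell genes (42.9%) that were higher are few genes beside that background, and nothing about these cells is read from them. Centring each array on its median left 0 Leydig cell and 0 macrophage genes higher. The part of these shifts in the CatSper values was not tested.

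**Figure D5:**
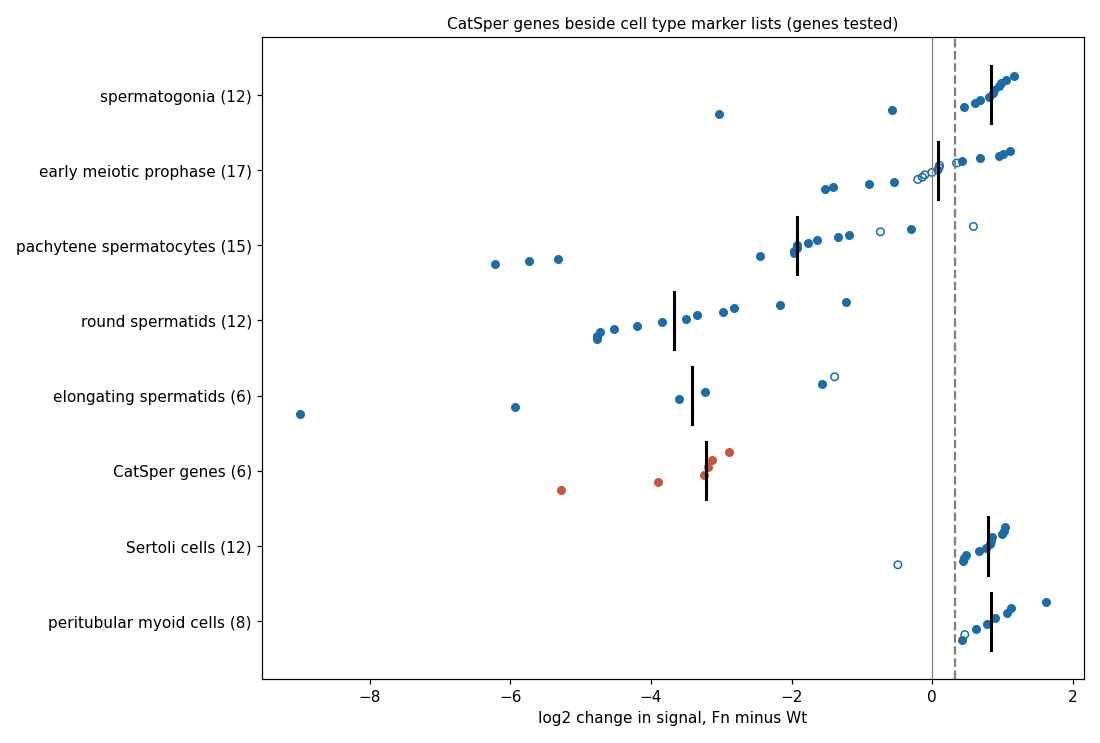
Fn minus Wt difference in log2 signal for the tested genes of 7 cell type marker lists and the CatSper genes, drawn as in the plot of the channel lists. Over tested genes, the CatSper median of -3.22 lies below that of pachytene spermatocyte genes, -1.93. It lies near those of round spermatid genes, -3.68, and elongating spermatid genes, -3.42. Over all measured genes, with dim groups raised to the filter level, the medians are -3.14 (CatSper), -1.85 (pachytene), -2.98 (round) and -0.79 (elongating). The likeness to elongating spermatid genes thus holds for tested genes only.

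The scale of the arrays shifts all genes together. The median log2 change of all genes tested was 0.32 on the deposited scale and 0.17 once each array was centred on its median, and the median of the 6 tested CatSper genes was -3.54 relative to that of all genes under both. The genes whose 6 signals, relative to their own Wt mean, lay nearest to the median course of the 6 tested CatSper genes were Lrriq4, Tssk1, Septin12, Hoxd3os1 and Csl. Over the 6 arrays the root mean square difference was 0.085 on the log2 scale for Lrriq4, a leucine-rich repeat gene, 0.12 for the spermatid kinase gene Tssk1 and for Septin12, a septin of the sperm tail, and 0.14 for Hoxd3os1 and Csl. This likeness is a description over 6 arrays of 2 genotypes, in which the difference between genotypes takes most of the course. Lrriq4 passed the filter through the Wt arrays alone, with 33.4, 65 and 37.5 in Fn. Catsper1 and Catsper3, which enter the median course, were dim in Fn as well, so part of the likeness rests on dim signals.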

How the data were processed

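Total RNA of 3 Wt and 3 Fn testes at P21 was hybridised to Affymetrix Mouse Genome 430 2.0 arrays. The values the authors deposited are MAS5 signals, that is, 1 intensity on a linear scale for each probe set, scaled per array. The submitters' processing notes give MAS5 without a version, and the study's methods name the GeneSpring software and give no test for these arrays. Genes were named from the platform annotation: 34945 of 45037 probe sets named 1 gene, 932 several and 9160 none. No detection calls were used here.

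From these, log2 signals (1 value of 0 set to 0.1) were fitted with limma 3.58.1 in R 4.3.3 (lmFit, eBayes with trend) for Fn against Wt over 27022 probe sets at or above the 40th percentile of mean log2 signal, and adjusted by Benjamini-Hochberg over all of these. The brightest probe set stood for a gene. A fold against a group under the filter level is the brighter geometric mean over 48. The fit was tested on simulated data with 50 probe sets changed at each of 4 sizes. It recovered 96% of those with a log2 change of -4 and 76% at -2, but 36% at -1 and 44% at 1. Far fewer probe sets were changed in the simulation than were called in the data.

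The members, lists and tests were chosen with earlier results of these data known. Named were all CatSper genes, every measured gene of the associated and sperm ion transport lists, up to 4 genes with the smallest p of other lists, Dazap1, Actb and the 5 genes of most similar course. Kcnk4, Ddx4, Sycp3, Sox9 and the genes given for having passed the filter through Wt alone were named outside this rule, after their values were seen. Across probe sets, the Wt and Fn arrays that share a number deviated from their genotype means with correlations of 0.13, 0.12 and 0.16. Arrays of unlike number had correlations of -0.15 to 0.04, so arrays of like number shared some variation. The brightest Actb probe set was lowest on replicate 3 in both genotypes, with 10475 in Wt and 10680 in Fn. The main fit and the permutation tests took the samples as unpaired all the same. The replicate number given by the labels entered only as a block, in an alternative setting. Alternatives covered scaling, filter, pseudocount, prior, array weights, replicate block, probe set choice, threshold and leaving out each array. A planned comparison of the member proteins was not made, since no protein table was used here. The number of arrays limits the precision.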

Additional observations from a re-analysis of the deposited data

How the results depend on the processing

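The 8 tested CatSper probe sets were lower under each setting run by probe set, except that with the filter at the median 7 passed it and were lower, Catsper1 not being tested. By gene, 6 CatSper genes were lower under the 17 other settings, and 5 under that one. With the replicate number as a block, 8 probe sets and 6 CatSper genes were lower, and the block moved no count by over 1.5 times. Without any given array, 6 CatSper genes were lower, and the adjusted p of Catsper1 was at most 0.017. Its fitted change ran from -4.03 with array weights to -1.88 with a pseudocount of 48. The mean of probe sets, which brings in dimmer ones, moved Catsperd from -3.90 to -2.89 and Catsper2 from -3.24 to -2.51.

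Counts of other lists moved as follows, and the cause was not tested. For sperm ion transport, the 1 higher gene became 0 with centring on medians, on 75th percentiles, with quantile normalization and with the mean of probe sets, and 0 to 1 without 1 array (0 without Wt replicate 2 or Fn replicate 1). For macrophages, the 5 higher genes became 0 with centring on medians, 3 with quantile normalization, 2 with 75th percentiles and 2 with no intensity trend, and 1 to 6 without 1 array (1 without Wt replicate 3 or Fn replicate 3, 3 without Fn replicate 1). For Leydig cells the 3 higher became 0 with centring on medians and 1 to 3 without 1 array (1 without Wt replicate 2 or Fn replicate 1). Early meiotic prophase had 7 lower in place of 4 with centring on medians. Intracellular channels had 5 lower in place of 3 with no filter, 1 with the mean of probe sets and 2 to 5 without 1 array (5 without Fn replicate 2). The other voltage-gated channels had 1 lower in place of 4 with the filter at the median and 2 with the mean of probe sets. Elongating spermatids had 3 lower in place of 5 with the filter at the median and with the mean of probe sets, and 3 to 5 without 1 array (3 without Wt replicate 1).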
